A study of Mus musculus with 58 samples.

Results

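A pair of cell populations of the embryonic mouse pancreas was compared: the mesothelium, the sheet of flat epithelial cells that covers the organ, and the mesenchyme beneath it. They were taken from live-sorted plates of a SORT-seq series, in which single cells are sorted into 384-well plates and transcripts are counted by unique molecular identifiers (UMIs, short random tags that mark each captured molecule). The cells came from embryos of mothers carrying MIP-GFP, a GFP reporter under the mouse insulin promoter, and the live plates were sorted for a negative viability stain with no selection for GFP. The labels give no other allele, treatment or strain, and they do not say how many embryos or litters fed a plate. Each of 5 experiments covered 1 stage: EP11 (E12.5), EP12, a day later (E13.5), EP14 (E14.5), then EP10 (E15.5) and, latest, EP16 (E18.5). Where 5 values are given below, they follow that order.

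Cells of both groups were chosen by their measured transcripts of marker genes. A cell was a well with at least 2000 transcripts and 500 genes. Mesothelium was defined as a cell with a value of at least 1 for at least 3 of 6 gate genes, Wt1, Upk3b, Upk1b, Lrrn4, Gpm6a and Bnc1. Mesenchyme was defined as a cell with fewer than 2 of these, no Epcam and at least 0.1% of its transcripts from Col1a1, Col1a2 and Col3a1 together. The rule found 651 cells, 111 mesothelial and 540 mesenchymal, among the 1884 live cells of the 5 experiments. The 15 plates of the series that could be tied to the labels held 4318 cells. The other 1233 live cells fell in neither group. Per experiment the mesothelium gave 28, 17, 30, 18 and 18 cells, and the mesenchyme gave 128, 68, 121, 103 and 120.

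Mesothelium lines the body cavities and wraps the organs that lie in them. It keeps the traits of an epithelium, such as keratins, tight junctions and a polarised surface facing the cavity, while also expressing Wt1, Gata factors and other genes of the lateral plate mesoderm from which it arises. In several organs mesothelial cells are known to leave the sheet by an epithelial to mesenchymal transition and to supply fibroblasts and mural cells, and the sheet is a known source of secreted signals. Pancreatic mesenchyme surrounds the growing epithelium, deposits interstitial matrix and provides factors such as Fgf10 that the epithelial progenitors need.

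The summed transcripts ranged from 283163 to 837415 for the mesothelium of an experiment and from 898372 to 2338940 for the mesenchyme. The median mesothelial cell was deeper in every experiment (16072 to 24708 transcripts, against 8921 to 18149 in mesenchyme). The gates count detected genes, at least 3 in mesothelium and fewer than 2 in mesenchyme, and detection rises with depth. The part of the gates in this gap was not tested. Because the groups differ in depth, shares described as thinned were taken after thinning each cell to 5000 transcripts. Thinning kept all 111 mesothelial cells and 475 mesenchymal cells and left out 65. The other shares and counts of cells holding a transcript or markers were taken before thinning and are not matched for depth. Mesothelium made up 7.98%, 4.90%, 9.40%, 6.25% and 3.11% of the live cells (Wilson 95% intervals 5.58 to 11.3, 3.08 to 7.70, 6.67 to 13.1, 3.99 to 9.66 and 1.98 to 4.86, for counting error only). Mesenchyme made up 36.5%, 19.6%, 37.9%, 35.8% and 20.7% (31.6 to 41.6, 15.8 to 24.1, 32.8 to 43.4, 30.4 to 41.5 and 17.6 to 24.2). The E18.5 shares include a second plate, labelled live but coded P6, the code that the labels otherwise give to MIP-GFP plates. It gave 0 mesothelial cells and 1 mesenchymal cell of 301. The other E18.5 plate gave 18 and 119 of 278 (6.47% and 42.8%). The authors' own smaller table of retained wells held 5 of the 111 mesothelial and 1 of the 540 mesenchymal cells.

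The gate genes chose the cells, so their values are a description. Wt1, a zinc finger transcription factor of mesothelium, stood at 471, 820.3, 658, 524 and 562 transcripts per 1000000 (CPM) in mesothelium and at 46.6, 82.4, 64.1, 33.3 and 89.0 in mesenchyme. The uroplakins Upk3b and Upk1b, membrane plaque proteins, averaged 129 ± 187 and 362 ± 219 CPM (SD, n = 5 experiments) in mesothelium against 0.154 ± 0.343 and 0.788 ± 0.972 in mesenchyme. Upk3b was uneven over the stages, at 37.5, 27.6, 19.1, 101 and 459 CPM in mesothelium. It was found in 52.3% of the mesothelial cells before thinning and in 30.6% after. Wt1 was not confined to the mesothelium: 33.1% of mesenchymal cells held a transcript of it, and of the 205 mesenchymal cells with exactly 1 gate gene 179 had Wt1. After thinning, 91.0% of mesothelial cells, 18.1% of mesenchymal cells and 2.05% of Epcam-positive cells outside both groups had Wt1.

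Few cells lay at the gate's edge. Of the 1884 live cells 1382 had none of the 6 gate genes, 360 had 1, 31 had 2, 9 had 3, 14 had 4, 49 had 5 and 39 had all 6. Of the cells with 2 gate genes 15 met the other conditions for mesenchyme and were placed in neither group. On the collagen side, 25 mesenchymal cells lay between 0.1% and 0.2%, and 22 cells that otherwise met the mesenchyme conditions lay between 0.05% and 0.1%.

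**Figure D1:**
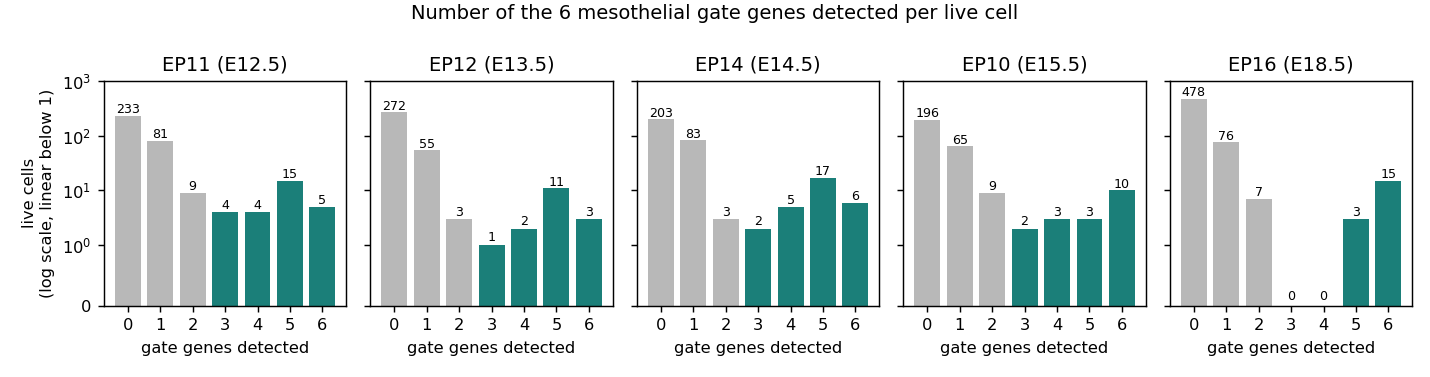
Live cells of each experiment (y axis, log scale, linear below 1) by the number of the 6 mesothelial gate genes they held (x axis); teal bars are the cells called mesothelium and grey bars the cells below the gate. Each experiment shows 2 humps, with 0 or 1 gate genes in most cells and 5 or 6 in most gated cells, and at E18.5 no cell held 3 or 4.

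The labels of both groups were checked against genes the gate did not use. Of a short set of mesothelial markers, Krt19, Krt8, Krt18, Rspo1 and Aldh1a2 could be tested and were higher in mesothelium; a longer list is given below. Msln, the mesothelin that names the adult tissue, was too sparse before E18.5 to be tested and stood at 0, 6.89, 9.55, 16.6 and 703 CPM in mesothelium and at 0, 0, 0, 0 and 2.30 in mesenchyme. Of the mesenchymal markers outside the gate, Pdgfra, Pdgfrb, Lum, Postn, Twist1 and Prrx1 were lower in mesothelium, Postn in the fit over all experiments but not without EP12, EP14, EP10 or EP16 (log2 -3.17 ± 0.97). Dcn, a small proteoglycan, was not called: it was at 340.3, 820.3, 1118, 1921 and 6276 CPM in mesothelium and 80.8, 543, 1284, 1293 and 5491 in mesenchyme (log2 difference 0.59 ± 0.24, edgeR adjusted p = 0.116; called higher in mesothelium with no filter on low counts). The collagen Col3a1 did not mark the mesenchyme alone. It was at 724, 2092, 2522, 3972 and 12078 CPM in mesothelium and 1416, 2849.6, 4537, 4225 and 9081 in mesenchyme, and 109 of the 111 mesothelial cells passed the 0.1% collagen level that the mesenchyme gate asked for. Epcam was present in 24 mesothelial cells and by the gate in no mesenchymal cell.

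RNA of other cell types was read in both groups. Summed over 12 endothelial markers the level was 22.5, 27.6, 69.3, 49.7 and 148 CPM in mesothelium and 41.0, 24.5, 19.8, 46.1 and 53.0 in mesenchyme, higher in mesothelium at every stage but E12.5. Of the 12, Cdh5, Cldn5 and Erg were at 0 in mesothelium, and 23 of 111 mesothelial and 39 of 540 mesenchymal cells held at least 2. Summed over 12 immune markers it was 3.00 to 32.2 CPM in mesothelium, with Lyz2 and Coro1a at 0, and 15.8 to 502 in mesenchyme, highest at E18.5; 55 mesenchymal cells held at least 2 immune markers, 15 of them at E18.5. Summed over 12 neural and Schwann cell markers it was 43.5 to 182 CPM and 76.8 to 189. RNA of the gland and of blood was read as well. The acinar enzyme genes summed to 31.8 to 2512 CPM in mesothelium, highest at E14.5, and 81.7 to 2110 in mesenchyme, highest at E15.5. The endocrine genes summed to 138 to 795 and 106 to 1398 CPM, the erythroid genes to 0 to 296 and 0 to 994.7, and the pancreatic epithelial and progenitor markers to 134 to 567 and 160.3 to 551, with Pdx1 at 0 in mesothelium. At least 2 genes of the epithelial list were held by 82 mesothelial and 328 mesenchymal cells, of the acinar list by 53 and 276, and of the endocrine list by 80 and 361. The 18 acinar, 12 endocrine and 6 erythroid genes in the table included 5, 5 and 2 that could be tested, and none of these 12 passed in edgeR; 2 of them had an unadjusted p under 0.05, and DESeq2 called 0. Without EP14, 2 acinar genes and 1 endocrine gene were called lower in mesothelium, and without EP11 or EP12 1 endocrine gene was. With mesothelium at 0 Epcam, or without the cells holding other cell types' markers, 2 acinar genes were lower. With limma on mean CPM 1 acinar gene was lower. In thinned cells, or with mesenchyme holding none of the gate genes, 1 endocrine gene was lower. With no filter on low counts 1 acinar gene was higher, and 2 endocrine and 3 erythroid genes were lower. The part of these RNAs in the differences below was not tested, except that the comparison was repeated without the cells that held at least 2 endothelial, immune or neural markers.

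Across the transcriptome the 2 groups differed widely. Transcripts were summed per experiment and group and fitted with edgeR's quasi-likelihood test with the experiment as block; the 10 gate genes were left out of the test, and a gene was called at a Benjamini-Hochberg adjusted p under 0.05. Of 9153 genes tested, 1802 were called (19.7%), 977 higher in mesothelium (10.7%) and 825 lower (9.01%). These shares of all genes are the background for the list counts below. A difference of at least 4-fold was fitted for 231 of the higher and 193 of the lower genes. The 5 mesothelial values lay wholly above the 5 mesenchymal values for 418 genes (4.57%) and wholly below for 361 (3.94%). All log2 differences below are mesothelium minus mesenchyme, ± SE, and the median over all tested genes was -0.03. The count depended on which cells entered. Without the cells holding other cell types' markers it was 1156 of 8351 genes tested. All 1647 of the called genes that could still be tested kept their sign. That setting left 25, 13, 14, 10 and 10 mesothelial cells. List counts given for it below can also fall because genes were no longer tested. Without EP14, the experiment with the most mesothelial cells, the count was 1210. With every cell thinned to 5000 transcripts and gated again on the thinned values, which left 19, 13, 25, 15 and 18 mesothelial cells, 1039 of the 1802 genes could be tested; 1033 kept their sign and 617 were called.

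**Figure D2:**
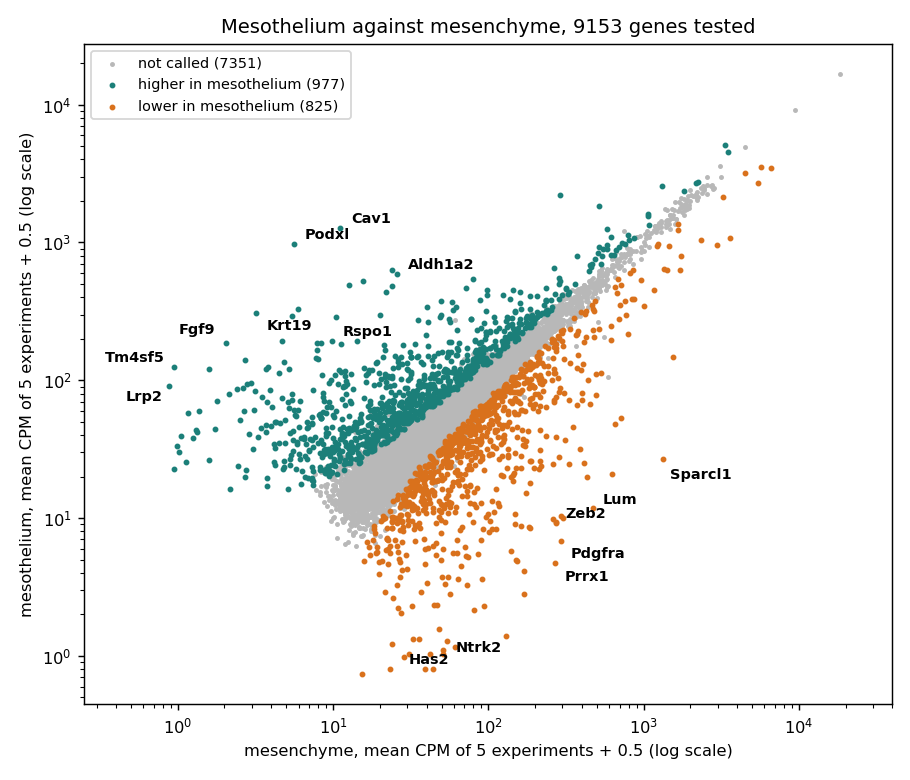
Mean CPM over the 5 experiments plus 0.5 in mesenchyme (x axis, log scale) and mesothelium (y axis, log scale) for the 9153 genes tested; teal and orange points are genes called higher (977) and lower (825) in mesothelium and grey points were not called. Podxl, Cav1 and Aldh1a2 lie far above the diagonal at high CPM in mesothelium, and Sparcl1, Pdgfra and Prrx1 far below it.

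The 12 genes of largest positive difference were Podxl, Cav1, Lrp2, Tm4sf5, Slc9a3r1, Crb2, Fah, Tmem151a, Pdzrn4, Krt19, Krt7 and Fgf9. Podxl, the sialomucin podocalyxin of apical membranes (chr6:31519493-31563937, GRCm38), stood at 735, 1341, 1142, 1087 and 569 CPM in mesothelium and at 4.28, 0, 2.36, 11.1 and 7.68 in mesenchyme. The groups lay far apart at all 5 stages, and the log2 difference was 7.46 ± 0.38 (adjusted p = 3.1e-07, edgeR). After thinning, 93.7% of mesothelial cells had a Podxl transcript, against 2.95% of mesenchymal and 5.67% of Epcam-positive cells. Cav1, the coat protein of caveolae, was at 312, 1093, 1040.1, 1443 and 2423 CPM in mesothelium and at 2.57, 5.57, 5.65, 23.9 and 15.4 in mesenchyme (log2 6.88 ± 0.24). Lrp2, the endocytic receptor megalin, was read 212 times in all mesothelium and 2 times in all mesenchyme. That is a ratio of rates of 347 with a 95% counting interval from 94.8 to 2881.

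The remaining genes of the largest differences shared this pattern of no overlap between the groups in any of the 5 experiments. Tm4sf5, a tetraspanin-like membrane protein, averaged 124 ± 32.6 CPM in mesothelium (SD, n = 5) and 0.445 ± 0.759 in mesenchyme. Slc9a3r1, the apical scaffold also called NHERF1 that links membrane proteins to ezrin, averaged 291 ± 129.5 against 4.96 ± 2.21. Crb2, an apical polarity protein of the Crumbs complex, averaged 139 ± 35.7 against 2.21 ± 2.38. Fah, the last enzyme of tyrosine breakdown, averaged 59.8 ± 20.5 against 0.879 ± 1.28. Tmem151a and Pdzrn4 completed the 12 genes of largest positive difference, with log2 values of 6.71 ± 0.40 and 5.86 ± 0.46.

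Keratins set the groups apart, while the mesenchymal filaments differed less. Krt19 stood at 25.5, 96.5, 289, 319 and 795 CPM in mesothelium and at 0.428, 0, 2.83, 4.09 and 6.14 in mesenchyme. Its mesothelial level was lowest at E12.5 and highest at E18.5, but the groups did not overlap and the log2 difference was 6.64 ± 0.22 (edgeR adjusted p = 2.8e-08). Krt7 differed by 5.71 ± 0.34, Krt18 by 3.34 ± 0.36 and Krt8 by 2.99 ± 0.38 on the log2 scale. Krt8 and Krt18 were sparser in mesothelium than in the gland's epithelium: after thinning, Krt8 was found in 33.3% of mesothelial, 4.63% of mesenchymal and 80.5% of Epcam-positive cells. Desmin (Des), the muscle-type filament, was lower in mesothelium, at 12, 27.6, 35.8, 39.3 and 70.6 CPM against 65.4, 142, 181, 136 and 103 (log2 -1.88 ± 0.25). Of 9 intermediate filament genes tested, 4 were higher and 3 lower, with a median of 0.08.

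Junction and polarity genes were mostly higher in mesothelium. Of the 30 tested, 21 were higher and 3 lower, with a median log2 difference of 1.46 against -0.03 for all genes. Without the cells holding other cell types' markers 25 were tested, with 17 higher and 1 lower. The ezrin gene Ezr, which ties the apical membrane to actin, stood at 471, 599.7, 484, 393 and 685 CPM in mesothelium and 17.1, 10.0, 11.8, 17.5 and 19.2 in mesenchyme (log2 5.05 ± 0.19, adjusted p = 3.5e-08, edgeR). The claudin Cldn15 was at 13.49, 34.5, 33.4, 45.5 and 304 CPM in mesothelium, highest at E18.5, and at 0.428, 0, 1.88, 1.17 and 6.14 in mesenchyme (log2 5.14 ± 0.35). The tight junction proteins cingulin (Cgn) and ZO-1 (Tjp1) differed by 5.09 ± 0.41 and 1.51 ± 0.18, and P-cadherin (Cdh3) by 3.72 ± 0.25.

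E-cadherin (Cdh1) was an exception. It was at 13.49, 6.89, 66.9, 45.5 and 17.7 CPM in mesothelium and 14.1, 15.6, 16.5, 49.1 and 18.4 in mesenchyme, with overlapping values (log2 0.46 ± 0.39, adjusted p = 0.475, edgeR). After thinning it was found in 8.11% of mesothelial, 10.7% of mesenchymal and 80.2% of Epcam-positive cells. P-cadherin, by contrast, had a transcript after thinning in 41.4% of mesothelial, 2.95% of mesenchymal and 19.1% of Epcam-positive cells.

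**Figure D3:**
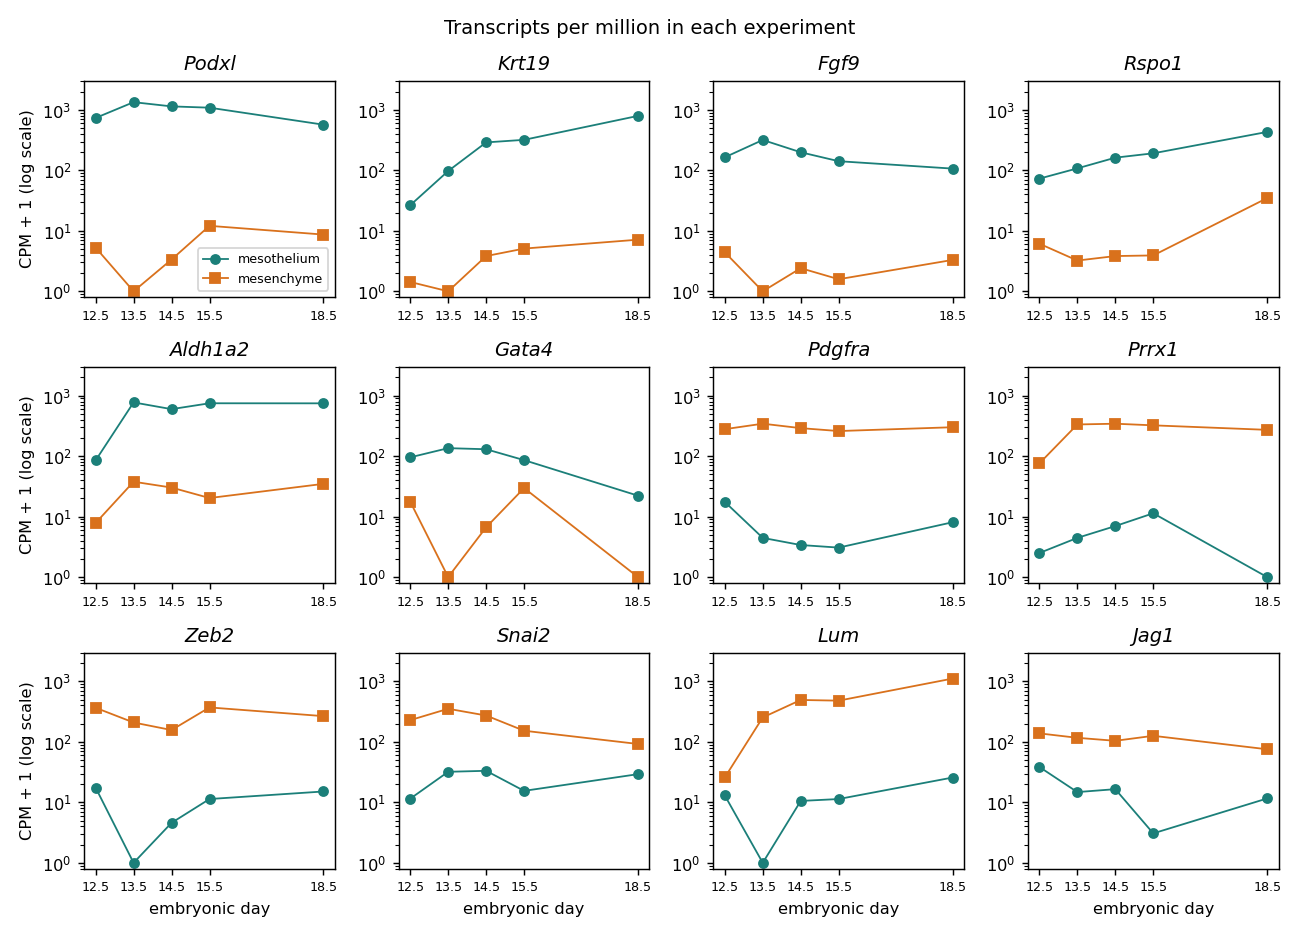
CPM plus 1 (y axis, log scale) of 12 genes by embryonic day (x axis), with 1 point per experiment for mesothelium (teal circles) and mesenchyme (orange squares). In each of the 12 panels the group with the higher level is the same at all 5 stages; Gata4 is the panel where the values of different stages overlap.

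Of 19 mesothelial markers tested outside the gate 18 were higher in mesothelium and 1 was not called, with a median log2 difference of 3.72. The list names genes known from mesothelium, so the count is a check of the label. Myrf, a membrane-bound transcription factor of coelomic epithelia, was among the steadiest, at 714, 676, 531, 631 and 579 CPM against 37.6, 14.47, 14.1, 16.9 and 34.5 (log2 4.76 ± 0.22). It was found in 95.5% of thinned mesothelial cells and 11.6% of mesenchymal cells. Igfbp5, a secreted binding protein of insulin-like growth factors, stood at 1970.1, 2340.2, 1964, 1589 and 3178 CPM against 588, 159, 155, 139 and 399.9 (log2 3.14 ± 0.27).

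The transcription factors of epithelial to mesenchymal transition lay on the mesenchymal side. Of 12 tested 11 were lower in mesothelium and 1 was not called (median -3.14), and 11 also passed without EP14 and without the cells holding other cell types' markers. Prrx1, a homeobox factor of mesenchyme (chr1:163245119-163315145, GRCm38), was at 1.5, 3.45, 5.97, 10.3 and 0 CPM in mesothelium and 74.8, 333, 342, 322 and 271 in mesenchyme. No values overlapped, and the log2 difference was -5.78 ± 0.27 (adjusted p = 1.7e-07, edgeR). Zeb2, a zinc finger repressor of E-cadherin, was at 16.5, 0, 3.58, 10.3 and 14.1 CPM against 365, 208, 156, 370.3 and 266 (log2 -4.93 ± 0.25), and its relative Zeb1 at 39.0, 34.5, 26.3, 35.2 and 31.8 against 132, 161, 166, 209.7 and 163 (log2 -2.32 ± 0.17).

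The Snail and Twist families followed. Snai2 was at 10.5, 31.0, 32.2, 14.49 and 28.3 CPM in mesothelium and 228, 352, 272, 152 and 91.3 in mesenchyme (log2 -3.29 ± 0.26). The lowest mesenchymal value, at E18.5, was above every mesothelial value. Snai1 differed by -2.98 ± 0.36, Twist1 by -3.30 ± 0.52 and Twist2 by -3.79 ± 0.26. Sox9, the one tested member that was not called, differed by -0.25 ± 0.22.

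Transcription factors of the gut and its mesoderm split between the groups. Of 27 tested from a list of mesenchymal and mesothelial factors, 10 were higher and 12 lower. Gata4, a zinc finger factor of endoderm and lateral mesoderm, stood at 94.5, 134, 129, 84.9 and 21.2 CPM in mesothelium and 16.7, 0, 5.65, 28.6 and 0 in mesenchyme. It was higher in mesothelium within each experiment but the 2 groups' ranges overlapped (log2 3.22 ± 0.54, adjusted p = 0.00133, edgeR). Gata6 was at 249, 199.9, 219, 375 and 289.6 against 59.4, 26.7, 38.2, 50.2 and 104 without overlap (log2 2.32 ± 0.21). Foxf1, a forkhead factor downstream of hedgehog signalling in splanchnic mesoderm, averaged 37.1 ± 18.3 CPM against 6.58 ± 6.26 (SD, n = 5). Barx1, a homeobox factor of stomach and spleen mesenchyme, was also on the mesothelial side, at 186 ± 47.4 against 63.8 ± 39.1, as was the LIM factor Isl1 (log2 1.49 ± 0.17).

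On the mesenchymal side, Osr2, an odd-skipped zinc finger factor, was at 0, 0, 9.55, 2.07 and 0 CPM in mesothelium and 11.5, 122, 298, 199.8 and 220.3 in mesenchyme, lowest in mesenchyme at E12.5 (log2 -5.69 ± 0.34). Hic1, a repressor found in quiescent mesenchymal progenitors, differed by -4.73 ± 0.30 and Tcf21, a helix-loop-helix factor of visceral mesoderm, by -2.44 ± 0.34. Tlx1, the spleen homeobox factor, did not reach the level for testing in enough samples. It was read 1 time in mesothelium and 366 times in mesenchyme, at 57.7, 54.5, 48.1, 41.5 and 6.91 CPM there, which is a ratio of rates of 112 (95% counting interval 19.96 to 4432).

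Of 36 interstitial matrix genes tested 18 were lower in mesothelium, 14 were not called and 4 were higher, with a median log2 difference of -0.90. Without the experiment as block 10 were lower and 2 higher. Lumican (Lum), a collagen-binding proteoglycan, was at 12, 0, 9.55, 10.3 and 24.7 CPM in mesothelium and 24.8, 253, 492, 479.6 and 1112 in mesenchyme. Its mesenchymal level was lowest at E12.5 and highest at E18.5, and the groups did not overlap (log2 -5.08 ± 0.49, adjusted p = 2.4e-05, edgeR). The large proteoglycan versican (Vcan) differed by -3.57 ± 0.21 and thrombospondin 2 (Thbs2) by -4.41 ± 0.47. Sparcl1, a secreted relative of osteonectin, was the most abundant gene among the 12 furthest on the mesenchymal side, at 4.50, 31.0, 13.1, 57.9 and 24.7 CPM in mesothelium and 659, 1584, 1583, 1761 and 1078 in mesenchyme, with a transcript in 9.91% and 90.1% of thinned cells. Has2, the main hyaluronan synthase, was read 2 times in mesothelium and 499 times in mesenchyme, a ratio of 76.3 (95% counting interval 21.0 to 632).

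A few matrix genes went the other way. Fibromodulin (Fmod), a collagen-binding proteoglycan like lumican, was at 55.5, 141, 211, 151 and 374 CPM in mesothelium and 2.57, 6.68, 7.07, 5.84 and 14.6 in mesenchyme, without overlap (log2 4.64 ± 0.17, adjusted p = 3.5e-08, edgeR). Fibulin 2 (Fbln2) was at 148, 417, 407, 596 and 756 CPM against 44.0, 39.0, 36.7, 32.1 and 204 (log2 2.89 ± 0.33). Thus 2 small proteoglycans, Fmod and Lum, lay on opposite sides, and another, Dcn, was not called.

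Basement membrane genes divided by chain. Of 19 tested 8 were higher and 5 lower in mesothelium (68.4% called, against 19.7% of all genes), with a median of -0.02. The widespread collagen IV chains Col4a1 and Col4a2 were on the mesenchymal side: Col4a1 was at 16.5, 24.1, 8.36, 22.8 and 24.7 CPM in mesothelium and 118, 209, 288, 728 and 801 in mesenchyme (log2 -4.34 ± 0.30), and Col4a2 differed by -2.66 ± 0.42. The X-linked chains Col4a5 and Col4a6 were on the mesothelial side, at 49.5, 58.6, 94.3, 89.0 and 208 CPM against 7.27, 6.68, 6.6, 9.35 and 16.1 for Col4a5 (log2 3.35 ± 0.22) and with a log2 difference of 4.20 ± 0.28 for Col4a6. None of these 4 genes overlapped between the groups. Laminin alpha 5 (Lama5), the long-arm chain of epithelial basement membranes, was at 70.5, 93.1, 99.1, 72.4 and 81.2 against 1.71, 0, 2.83, 4.09 and 4.61 (log2 4.86 ± 0.34).

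The Fras1 and Frem proteins, which anchor epithelia to the tissue beneath them, were split as well. Frem2 was at 289, 507, 444, 769.9 and 441 CPM in mesothelium and 14.1, 14.47, 6.6, 22.2 and 3.07 in mesenchyme (log2 5.32 ± 0.28), and Fras1 differed by 3.07 ± 0.24. Frem1 was at 16.5, 20.7, 5.97, 2.07 and 0 CPM in mesothelium and 163, 119, 86.2, 70.7 and 73.7 in mesenchyme (log2 -3.58 ± 0.30). Fras1 and Frem2 are membrane proteins of the epithelial cell and Frem1 is known as a mesenchymal partner that they bind.

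**Figure D4:**
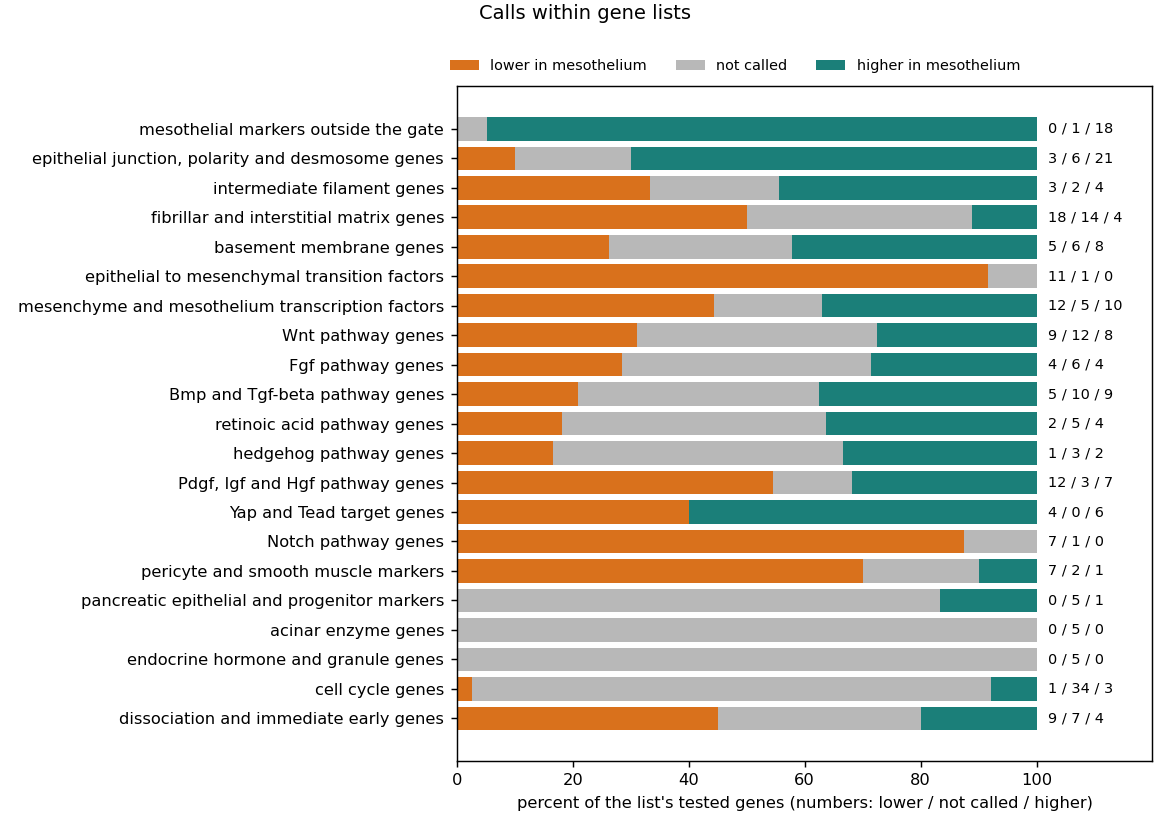
Share of each list's tested genes (x axis, percent) called lower in mesothelium (orange), not called (grey) or called higher (teal), with the counts at the right; lists with at least 5 tested genes are shown. The transition factors and Notch genes are nearly all lower (11 of 12 and 7 of 8), mesothelial markers 18 of 19 higher, and 34 of 38 cell cycle genes were not called; 19.7% of all genes were called in either direction.

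Among ligands, Fgf9 differed most. Fgf9 is a secreted factor that in lung and gut is made by epithelium and mesothelium and signals to mesenchyme (chr14:58070671-58112854, GRCm38). It was at 163, 317, 198, 141 and 106 CPM in mesothelium and 3.42, 0, 1.41, 0.584 and 2.30 in mesenchyme, without overlap (log2 6.53 ± 0.34, adjusted p = 3.4e-07, edgeR). After thinning, 59.5% of mesothelial, 0.421% of mesenchymal and 3.81% of Epcam-positive cells had a transcript. Of the feedback inhibitors that Fgf signalling induces, Spry4, Spry1 and Dusp6 were lower in mesothelium and Spry2 was not called (log2 -0.13 ± 0.25), nor was the target Etv1 (log2 -0.18 ± 0.44). Spry4 was at 3.00, 0, 1.19, 4.14 and 0 CPM in mesothelium and 51.7, 102, 76.8, 107 and 64.5 in mesenchyme (log2 -5.24 ± 0.36), Spry1 at 21.0, 6.89, 16.7, 4.14 and 24.7 against 143, 183, 225, 199 and 127 (log2 -3.57 ± 0.30), and the phosphatase Dusp6 differed by -2.78 ± 0.30.

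The receptors of the pathway differed less. Fgfr1 was at 79.5, 86.2, 59.7, 103 and 145 CPM in mesothelium and 220.2, 266, 199, 149 and 236 in mesenchyme (log2 -1.22 ± 0.19). Fgfr2 differed by -0.89 ± 0.58 (adjusted p = 0.336, edgeR) and the mesenchymal ligand Fgf10 by 0.15 ± 0.53 (adjusted p = 0.891), with overlapping values for both. Of 14 Fgf pathway genes tested 4 were higher and 4 lower (57.1% called, against 19.7% of all genes), with a median of -0.29. The 4 higher genes became 2 without EP14 and 2 without the cells holding other cell types' markers.

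In the Wnt pathway Rspo1, which amplifies Wnt signals, and the ligands Wnt2b and Wnt9a were higher in mesothelium. Rspo1 was at 72.0, 107, 161, 190.4 and 431 CPM in mesothelium and 5.13, 2.23, 2.83, 2.92 and 33.8 in mesenchyme, and its mesothelial level was lowest at E12.5 and highest at E18.5 (log2 4.58 ± 0.33, adjusted p = 3.3e-06, edgeR). Wnt2b was at 22.5, 24.1, 26.3, 57.9 and 60.0 against 0, 0, 0.942, 0 and 13.0 (log2 4.27 ± 0.67) and Wnt9a differed by 2.83 ± 0.26. The Frizzled receptors were split: Fzd6, Fzd5 and Fzd4 were higher in mesothelium (log2 3.62 ± 0.45, 3.13 ± 0.51 and 2.82 ± 0.53), and Fzd1 (log2 -1.32 ± 0.23) and Fzd2 (log2 -0.47 ± 0.14; not called without EP12, EP14, EP10 or EP16) were lower. The secreted modulator Dkk2 was lower in mesothelium, at 7.50, 20.7, 14.3, 4.14 and 10.6 CPM against 37.2, 39.0, 57.0, 64.8 and 80.6 (log2 -2.30 ± 0.32). The general target Axin2 was at 39.0, 72.4, 74.0, 74.5 and 49.4 CPM in mesothelium and 40.6, 71.2, 65.5, 52.6 and 29.2 in mesenchyme and was not called (log2 0.24 ± 0.17, adjusted p = 0.373, edgeR). Of 29 tested 8 were higher and 9 lower (58.6% called, against 19.7% of all genes), with a median of 0.12. The 8 became 4 without the cells holding other cell types' markers, where 24 genes were tested.

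The enzymes of retinoid metabolism did not share a direction. Aldh1a2, which makes retinoic acid from retinal, was at 84.0, 772, 597, 747 and 745 CPM in mesothelium and 6.84, 36.7, 29.2, 19.3 and 33.8 in mesenchyme. The E12.5 mesothelium was the lowest of the 5 and still above every mesenchymal value (log2 4.47 ± 0.20, adjusted p = 1.4e-07, edgeR). Cyp26b1, which degrades retinoic acid, was read 3 times in mesothelium, all at E14.5, and 199 times in mesenchyme, at 26.5, 25.6, 20.7, 30.4 and 13.8 CPM there. The ratio of rates was 20.3 (95% counting interval 6.84 to 99.2). Dhrs3, a reductase that turns retinal back to retinol, was on the mesothelial side, at 39.0, 196, 223, 128 and 84.8 CPM against 0.855, 7.79, 27.8, 8.76 and 47.6 (log2 3.08 ± 0.45, adjusted p = 0.00047, edgeR). Rdh10, which makes retinal from retinol, was not called (log2 0.07 ± 0.36, adjusted p = 0.936, edgeR). The receptor Rarb, itself induced by retinoic acid, differed by 0.60 ± 0.34 (adjusted p = 0.26, edgeR) with overlapping values. Of 11 tested genes 4 were higher and 2 lower (54.55% called, against 19.7% of all genes), with a median of 0.16. The 4 became 2 and the 2 became 1 without EP12, EP14, EP10 or the cells holding other cell types' markers, the last with 9 genes tested.

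Growth factor ligands and receptors were placed across the groups. Pdgfa and Pdgfc, ligands of the receptor Pdgfra, were higher in mesothelium: Pdgfa was at 139, 89.6, 63.3, 122 and 117 CPM against 28.6, 21.1, 22.1, 29.2 and 16.9 (log2 2.10 ± 0.19) and Pdgfc at 129, 148, 116, 114 and 35.3 against 31.2, 31.2, 10.8, 1.17 and 4.61 (log2 2.98 ± 0.40). The receptor Pdgfra (chr5:75151322-75198206, GRCm38) was at 16.5, 3.45, 2.39, 2.07 and 7.06 CPM in mesothelium and 278, 343, 289, 259 and 299 in mesenchyme, without overlap (log2 -5.45 ± 0.32, adjusted p = 8.1e-07, edgeR), and Pdgfrb differed by -4.51 ± 0.35. Pdgfra was found in 4.50% of thinned mesothelial and 68.6% of mesenchymal cells. Met, the receptor of hepatocyte growth factor, was at 1.5, 41.4, 52.5, 118 and 159 CPM in mesothelium and 0.855, 0, 1.88, 3.50 and 14.6 in mesenchyme, overlapping through its low E12.5 value (log2 4.20 ± 0.42). Igf2 was abundant in both, at 3852, 4243, 2923, 4108 and 2447 CPM against 4866, 5740.4, 5675, 6362 and 5889.8 (log2 -0.73 ± 0.13). Of 22 tested genes of these families 7 were higher and 12 lower (86.4% called, against 19.7% of all genes), with a median of -0.61.

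Notch pathway genes were mostly lower in mesothelium: 7 of 8 tested were lower and 1 was not called, with a median of -2.05. The ligand Jag1 was at 37.5, 13.8, 15.52, 2.07 and 10.6 CPM in mesothelium and 137, 116, 103, 125 and 74.5 in mesenchyme, without overlap (log2 -2.78 ± 0.32, adjusted p = 8.3e-05, edgeR). The receptors Notch1 and Notch3 differed by -3.76 ± 0.40 and -1.73 ± 0.19, and the target Hes1 was at 88.5, 41.4, 28.7, 45.5 and 10.6 CPM against 329.6, 197, 165, 301 and 82.9 (log2 -2.37 ± 0.17). Heyl, a target known from mural cells, differed by -4.30 ± 0.36.

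The mesenchyme gate also admits pericytes and smooth muscle, and their markers moved with these genes. Of 10 tested from that list 7 were lower in mesothelium and 1 higher (0 without EP12 or without EP14), with a median of -1.96. The summed level of the 14 markers was 237 to 495 CPM in mesothelium, where Actg2 was at 0, and 808 to 1342 in mesenchyme. Rgs5, a pericyte marker, was read 1 time in mesothelium and 337 times in mesenchyme (ratio 103, 95% counting interval 18.4 to 4082), and Cspg4, the NG2 proteoglycan, differed by -3.58 ± 0.36. Acta2, smooth muscle actin, was at 4.50, 3.45, 15.52, 47.6 and 42.4 CPM against 59.0, 239, 76.3, 220.2 and 157 (log2 -2.70 ± 0.33). Notch3 belongs to this list and the Notch list, and Pdgfrb to this list and that of the Pdgf, Igf and Hgf families. The part of mural cells in the Notch result was not tested.

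Several receptor genes were among the 12 furthest on the mesenchymal side. Ntrk2, the receptor of brain-derived neurotrophic factor, was at 25.2, 108, 206, 170.0 and 141 CPM in mesenchyme and was read 3 times in all mesothelium (ratio 109, 95% counting interval 37.2 to 529). Pth1r, the parathyroid hormone receptor, averaged 1.82 ± 1.92 CPM in mesothelium (SD, n = 5) and 93.8 ± 34.4 in mesenchyme. Ednrb, the endothelin B receptor, was read 2 times in mesothelium and 450 times in mesenchyme. Rgs4, a regulator of G protein signalling, was read 3 times and 453 times. Lrrc17, a secreted leucine-rich repeat protein, differed by -5.53 ± 0.33, and the ubiquitin ligase gene Rnf165 was read 2 and 445 times.

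Bmp and Tgf-beta genes were mixed, with 9 of 24 tested higher and 5 lower in mesothelium (median 0.22). That is 58.3% called, against 19.7% of all genes. The 5 lower became 3 without EP14, 3 without EP10, 8 without EP16 and 2 without the cells holding other cell types' markers. Without the experiment as block the 9 higher became 2 and the 5 lower became 1. In thinned cells 4 were higher and 1 lower of 16 tested. Endoglin (Eng), a co-receptor of the family, was read 2 times in mesothelium and 337 times in mesenchyme (ratio 51.5, 95% counting interval 14.2 to 427). The ligand Bmp4 was at 119.9, 107, 80.0, 101 and 84.8 CPM in mesothelium and 97.9, 18.9, 17.0, 16.9 and 26.1 in mesenchyme (log2 1.70 ± 0.32, adjusted p = 0.00294, edgeR). It was higher in mesothelium within each experiment, but the E12.5 mesenchymal value lay above the E14.5 and E18.5 mesothelial values. Without the experiment as block it was not called. Of 6 hedgehog pathway genes tested 2, the co-receptor Cdon (log2 1.25 ± 0.24) and Gas1 (log2 0.37 ± 0.11; not called without EP11, EP12, EP14 or EP10), were higher and 1, Gli3, was lower (log2 -0.93 ± 0.19). Of the 6, 50% were called, against 19.7% of all genes. The 2 higher genes became 1 without EP11, without EP12 or without EP10, and 0 without the experiment as block. Of 10 Yap and Tead target genes tested 6 were higher and 4 lower (100% called, against 19.7% of all genes), with a median of 0.98. Of the higher genes Crim1 differed by 2.13 ± 0.33 and Ajuba by 1.23 ± 0.17. The lower genes were Axl (log2 -1.38 ± 0.24, not called without the experiment as block), Amotl1 (log2 -1.37 ± 0.16), Arhgef17 and Cyr61. The list members Ctgf, Ankrd1, F3 and Nt5e were not tested.

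Few proliferation genes were called. Of 38 cell cycle genes tested 3 were higher and 1 lower, 10.5% against the 19.7% of all genes, and the 3 higher calls were lost without EP12, without EP14 or without the cells holding other cell types' markers. Mki67 was at 442, 258, 72.8, 639.5 and 98.9 CPM in mesothelium and 441, 385, 227, 388 and 139.7 in mesenchyme (log2 -0.35 ± 0.26, adjusted p = 0.405, edgeR), and Top2a differed by 0.08 ± 0.11 (called higher where mesenchyme was held to collagens of at least 1%). Genes that respond to tissue dissociation were tested as well. Of 20 tested 4 were higher, 2 of them without EP14, and 9 lower in mesothelium, with a median of -0.56. That is 65% called, against 19.7% of all genes. The 9 lower became 6 without EP11, EP12 or EP14, 7 without EP10, 12 without EP16 and 0 without the experiment as block. Of the lower genes, Nr4a1 differed by -2.01 ± 0.20 and Junb by -1.74 ± 0.27 on the log2 scale. The small heat shock gene Hspb1 was at 130.4, 199.9, 290.2, 437 and 1123 CPM in mesothelium and 22.2, 13.4, 6.6, 18.7 and 46.8 in mesenchyme (log2 4.17 ± 0.33). The part of the tissue's dissociation in the other differences was not tested.

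A sixth experiment, EP18, also at E12.5, did not enter the choice of members or the fit. Its plate held 10 mesothelial and 64 mesenchymal cells by the same gates, so it is given as a description. In each group 1 cell exceeded 5 times its plate's median. The EP18 mesothelial cells held a median of 3 gate genes, the gate's minimum, against 5 or 6 in the 5 experiments. Their median depth was 9529 transcripts, against 16072 to 24708. Of 720 genes called higher with at least 10 transcripts there 632 (87.8%) were higher in the EP18 mesothelium, and of 715 called lower 587 (82.1%) were lower. Of all 7564 tested genes at that depth 49.5% were higher. Podxl was at 669 CPM against 9.54, Fgf9 at 513 against 5.73, Pdgfra at 0 against 241 and Prrx1 at 7.12 against 137. Krt8 did not follow, at 14.2 CPM against 19.1.

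The difference between the groups changed with stage for a small set of genes. The slope of the log2 difference per embryonic day was tested as an interaction over the same 10 sums, and 104 of 9153 genes were called (1.14%), 64 rising (0.699%) and 40 falling (0.437%). A rising slope means that mesothelium gained on mesenchyme. Each stage had 1 experiment, so stage and experiment cannot be told apart, and E18.5 lies far from the other days. Without EP16 60 genes were called, of which 19 were among the 104; without EP12 54 were called, of which 49 were.

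Tgfbi, a secreted matrix protein induced by Tgf-beta, had the smallest p. It was at 13.49, 44.8, 103, 57.9 and 311 CPM in mesothelium and at 531, 1335, 806, 237 and 51.4 in mesenchyme, so the order of the groups was reversed at E18.5. The slope was 1.39 ± 0.07 log2 per day (adjusted p = 8.6e-07, edgeR), and it passed in each of the fits that left out 1 experiment. Nnat, an imprinted membrane proteolipid, was at 885, 1489, 874, 716 and 540.3 CPM in mesothelium and 1115, 1064, 282, 225 and 56.8 in mesenchyme, below mesenchyme at E12.5 and above it at the later stages (slope 0.58 ± 0.06). Nrep, a neuronal regeneration related protein, had a slope of 0.47 ± 0.04. Both also passed in each fit without 1 experiment.

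Cdh11, the cadherin of mesenchymal cells, was at 256, 317, 266, 428 and 971 CPM in mesothelium and 681, 784, 546, 452 and 405 in mesenchyme, so that the mesothelium was below at E12.5 and above at E18.5 (slope 0.47 ± 0.05). Nkain4 and Akr1b8 had slopes of 0.84 ± 0.09 and 0.93 ± 0.11. These 3 genes were not called without EP16, with slopes of 0.43, 0.48 and 0.88. Wnt5a, a non-canonical Wnt ligand, was at 22.5, 41.4, 50.2, 62.1 and 208 CPM in mesothelium and 141, 166, 101, 53.7 and 97.5 in mesenchyme and had a slope of 0.61 ± 0.08 (adjusted p = 0.00424, edgeR), called in each fit without 1 experiment.

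**Figure D5:**
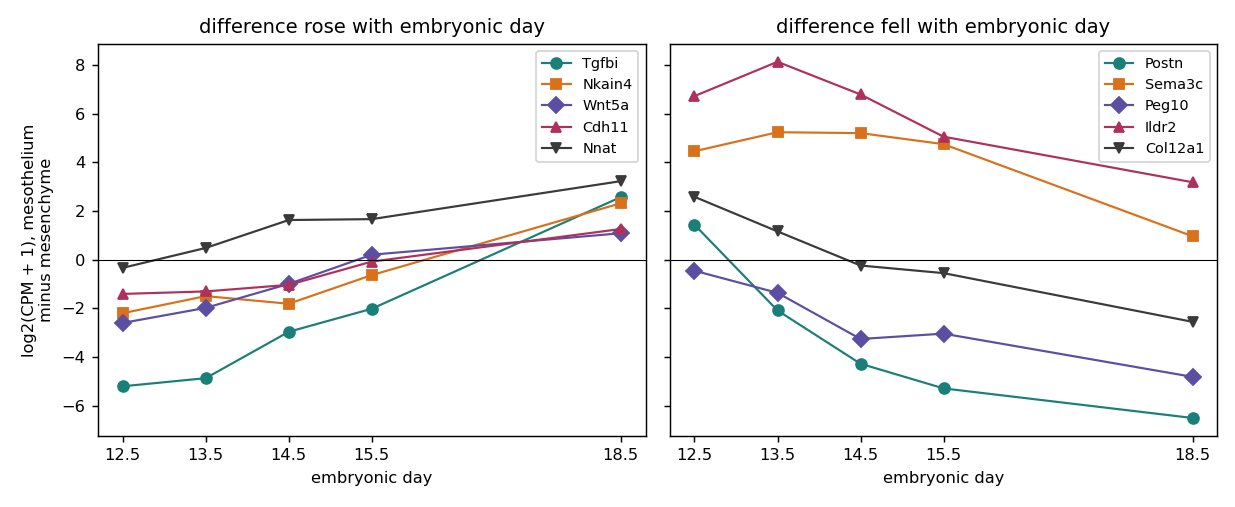
Log2(CPM + 1) of mesothelium minus mesenchyme (y axis) by embryonic day (x axis), 1 point per experiment, for 5 genes whose difference rose with stage (left) and 5 whose difference fell (right). Tgfbi crosses from below 0 to above 0, and Postn and Col12a1 cross from above 0 to below; for Sema3c and Ildr2 the difference stays above 0 and is smallest at E18.5.

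The falling slopes included matrix genes. Postn, the matricellular protein periostin, was at 179.9, 27.6, 19.1, 8.28 and 28.3 CPM in mesothelium and 65.8, 120.2, 388, 361 and 2649 in mesenchyme. It was higher in mesothelium at E12.5 and lower from E13.5 on (slope -1.62 ± 0.22, adjusted p = 0.00424, edgeR; not called by DESeq2). Col12a1, a collagen that associates with fibrils, was at 87.0, 58.6, 49.0, 78.6 and 53.0 CPM in mesothelium and 13.7, 25.6, 57.9, 116 and 315 in mesenchyme (slope -0.85 ± 0.09) and was called in each fit without 1 experiment. Gsn, the actin-severing protein gelsolin, had a slope of -0.51 ± 0.07.

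Sema3c, a secreted guidance factor, showed how much the last stage decides. It was at 58.5, 121, 105, 229.7 and 371 CPM in mesothelium and 1.71, 2.23, 1.88, 7.59 and 189.6 in mesenchyme, with a slope of -0.996 ± 0.12 that was -0.09 without EP16. Ildr2, a membrane protein of tricellular junctions, was at 239.9, 279, 214, 362 and 349.6 CPM against 1.28, 0, 0.942, 9.93 and 37.6 (slope -0.84 ± 0.12). Ildr2 and Gsn were likewise not called without EP16, with slopes of -1.01 and -0.35. Peg10, an imprinted retrotransposon-derived gene, was at 148, 107, 47.8, 45.5 and 10.6 CPM in mesothelium and 204, 276, 465, 381 and 325 in mesenchyme (slope -0.88 ± 0.12), and was not called without EP11, where the slope was -0.70. Fgf10, which was not called over all stages together, had a falling slope of -0.82 ± 0.16 (adjusted p = 0.0282, edgeR; -0.44 and not called without EP16, -0.86 and not called without EP12), at 22.5, 17.2, 37.0, 18.6 and 3.53 CPM in mesothelium and 7.27, 11.1, 19.8, 18.1 and 72.9 in mesenchyme.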

How the data were processed

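Per the labels, live cells were negatively selected for a viability dye, sorted into plates and processed by SORT-seq on an Illumina sequencer; per the submitters' processing notes BWA, Seurat and mm10 were used, with no version given. The authors deposited expected counts, that is, UMI-based estimates of the transcripts of each gene in each well, with no depth scaling. The table held 19788 genes and spike-ins (89 spike-ins); 5760 wells on 15 plates could be tied to the labels by plate name; another 1536 could not and were left out. The EP11 and EP14 live plates were filled although the labels list 3 libraries for each, so some wells may belong to no listed library.

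Counts were rounded and summed per experiment and cell group, each with at least 10 cells. edgeR 4.0.16 (R 4.3.3) was run on the sums with TMM, filterByExpr and the quasi-likelihood test, with experiment as block, since both groups came from the same plates. CPM is a gene's share of a sum, scaled per 1000000 transcripts, spike-ins excluded; SD is over 5 experiments. The labels do not say whether experiments came from separate litters, so p-values speak only for the spread among these 5. Wells received sorted single cells, so doublets were not called. No cell of either group in the 5 experiments exceeded 5 times its plate's median. A doublet need not reach that limit, so doublets are not excluded. Gene positions are from RefSeq, GRCm38.p6.

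The cell groups and gene lists were chosen with earlier results of these data known. Genes were named by a rule: among called genes with the same sign in all 5 experiments and at least 50 CPM in the higher group, the 12 with the largest log2 difference each way; up to 6 called members of each list with at least 20 CPM; the 6 smallest p each way for the slope; and list members whose role is described. All other genes named were chosen after their values were seen, among them Tlx1, Msln, C3 and Slpi. The counts of named genes below leave out Nr4a1, Junb, Axl, Amotl1, Arhgef17 and Cyr61. Alternatives were RLE scaling, DESeq2 1.42.0, no filter, no block, other gates, thinned cells, limma 3.58.1 on mean CPM, and each experiment left out.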

Additional observations from a re-analysis of the deposited data

Results flagged for a closer look

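In 5 of the 121 named genes that were tested, 1 experiment stood apart from the other 4 in its log2(CPM + 1) difference between the groups; chance alone gives about 1 such gene in 20. Zeb2 in EP12 was at -7.708, with the other experiments between -5.098 and -4.14, and no Zeb2 transcript was read in the EP12 mesothelium. Pdgfrb in EP10 was at -7.955 (others -4.623 to -3.319) and Heyl in EP12 at -6.302 (others -3.965 to -3.103), again with 0 transcripts in mesothelium. For Fgf10 and Sema3c the stray experiment was the latest stage: Fgf10 in EP16 was at -4.028 (others 0.039 to 1.506) and Sema3c in EP16 at 0.964 (others 4.456 to 5.236).

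The difference between mesothelium and mesenchyme changed with embryonic day for 16 of the named genes by the interaction test. The slopes in log2 per day that rose were 1.386 for Tgfbi, 0.926 for Akr1b8, 0.835 for Nkain4, 0.609 for Wnt5a, 0.585 for Nnat, 0.524 for Rdh10, 0.474 for Cdh11 and 0.469 for Nrep. Those that fell were -1.619 for Postn, -0.996 for Sema3c, -0.883 for Peg10, -0.846 for Col12a1, -0.836 for Ildr2, -0.824 for Fgf10, -0.676 for Dhrs3 and -0.511 for Gsn. Stage and experiment cannot be told apart in them.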

How the results depend on the processing

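Of 1802 genes called, 790 were called with no replicate block, that is with the pairing of the groups by plate ignored, and all 1802 kept their sign. The count was 1156 of 8351 tested without cells holding markers of other cell types, and 658 of 4841 tested with cells thinned to 5000 transcripts and gated again. Leaving out each experiment gave 1210 to 1868. Every other alternative stayed within 1.5 times, from 1447 with DESeq2 to 2645 with no filter; adding EP18, chosen after seeing the data, gave 1739. Requiring collagens of at least 1% left EP11 without mesenchymal cells and so rested on 4 experiments. The 104 slope calls became 49 with DESeq2 and 275 with no filter, and leaving out each experiment gave 54 to 113. Of 101 called named genes 94 were called in every setting that tested them. Bmp4, Sema3c and Cdon were lost with no replicate block, and Fzd2, Gas1, Nnat and Postn (overall log2 differences of -0.47 ± 0.14, 0.37 ± 0.11, 1.25 ± 0.38 and -3.17 ± 0.97) in several settings, including without EP12, EP14 or EP10. No called named gene changed sign. Of 20 named genes not called, 10 changed sign in some setting, with no call where the sign was opposite, and 8 were called in some setting: Dcn with no filter, Top2a and Col12a1 with collagens of at least 1%, Cdh11, Nkain4 and Wnt5a without EP16, and Gsn and Tgfbi in several. Of the 16 slopes of named genes, those of Akr1b8, Cdh11, Dhrs3, Fgf10, Gsn, Ildr2, Nkain4, Rdh10 and Sema3c were not called without EP16, those of Dhrs3, Fgf10 and Rdh10 also without EP12, Fgf10 and Rdh10 with DESeq2, Rdh10 further without EP10, with RLE scaling and with EP18 added, that of Peg10 without EP11 and that of Postn with DESeq2. The lower depth of the mesothelial sums limits what can be said of genes read a few times there, and genes read mainly in few sums, such as Msln, were not tested.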

Other observations

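Beside Msln, other secreted products were read in mesothelium mainly at E18.5, in too few samples to be tested. C3, the central complement component, was at 0, 0, 3.58, 14.49 and 1239.6 CPM in mesothelium and 0, 0, 0, 0 and 85.2 in mesenchyme. Slpi, a secreted protease inhibitor, was at 0, 0, 1.19, 2.07 and 38.8 CPM in mesothelium and 0, 0, 0, 0 and 3.07 in mesenchyme. The E18.5 mesothelium came from 18 cells of 1 experiment, so neither value has a replicate. A further live experiment, EP17 at E15.5, held 4 mesothelial and 2 mesenchymal cells by the same gates and entered no sum.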
